A study of Mus musculus with 18 samples.

Results

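Matrix metalloproteinases (MMPs) and their tissue inhibitors (TIMPs) were followed by RNA sequencing in bone marrow-derived macrophages (BMDMs). The genes were 7 MMPs (Mmp2, Mmp8, Mmp9, Mmp12, Mmp13, Mmp14 and Mmp19) and 3 TIMPs (Timp1, Timp2 and Timp3), taken by symbol and read at their Ensembl identifiers, and they are 10 of the 49315 genes counted. The study asked which genes depend on HDAC3, a histone deacetylase, when macrophages meet apoptotic cells. BMDMs were labelled M-HDAC3-/- or, for the controls, wild type, and the study's methods give the controls as HDAC3 f/f. Each genotype was left untreated, cocultured with apoptotic cells (ACs) or cocultured with non-apoptotic cells (NACs), with 3 libraries in each of 6 groups. The study's methods give 3 animals per group beside the names of the genotypes, so the treatments of a genotype may share animals. All mice were of C57BL/6J background with loxP sites on both sides of exon 7 of Hdac3, and M-HDAC3-/- mice also carried a Cre recombinase in the lysozyme 2 (Lyz2) locus, which is active in myeloid cells. The macrophages were differentiated from femoral marrow in medium conditioned by L929 cells, a mouse line that secretes macrophage colony-stimulating factor. K562, an established line of human leukemia cells, served as ACs 2 h after 15 min under UVB light and as NACs when not irradiated. Coculture lasted 45 min, the K562 cells were washed off, and RNA was taken 5 h later. Reads were aligned to the mouse genome alone, which the study gives as a way to keep signal from human RNA low. The part of human reads in the counts was not tested.

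MMPs are zinc-dependent enzymes that are made as inactive proforms and, once activated, cut collagens, elastin, fibronectin and many secreted or membrane proteins. Mmp8 and Mmp13 encode collagenases, which cut fibrillar collagen. Mmp2 and Mmp9 encode gelatinases, which cut denatured and basement membrane collagen. Mmp12 encodes macrophage elastase, Mmp14 a membrane-anchored enzyme that activates pro-MMP2, and Mmp19 an MMP that acts on basement membrane proteins. TIMPs bind the active site of these enzymes, and TIMP3 is held in the matrix and also inhibits several ADAM proteinases. Macrophages are a main source of MMP9, MMP12 and MMP14 in injured tissue.

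The labels had to be weighed before any direction was read. Total counts ranged from 4704491 to 26421267 per library, with a median of 16477929. The smallest library was M-HDAC3-/- untreated replicate 1. Correlations between replicates, across genes, were 0.868 to 0.972, and the lowest was within the untreated M-HDAC3-/- group. Hdac3, the deleted gene, was at 38.7, 11.4 and 74.6 CPM (read counts scaled to library size) in libraries labelled M-HDAC3-/- untreated, 4.66, 34.0 and 42.6 CPM with NACs and 39.7, 10.1 and 17.9 CPM with ACs. In libraries labelled HDAC3 f/f it was at 3.38, 44.4 and 32.0 CPM untreated, 48.7, 44.0 and 11.6 CPM with NACs and 7.12, 38.3 and 29.7 CPM with ACs. The level of Hdac3 therefore did not separate the genotype labels, and since counts are for the whole gene and the deletion takes only exon 7, they check the labels only in part. Genotypes below are those of the labels. All 10 macrophage markers had counts in all 18 libraries, with Csf1r at 1170 to 6791 CPM and Cd68 at 1018 to 5303 CPM. In RNA from whole cultures, a change in the number of cells of a type and a change of RNA per cell cannot be told apart.

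Mmp13, Mmp12 and Mmp8 lie in that order on chromosome 9 (GRCm38, plus strand), at chr9:7272514-7283331, chr9:7344381-7369499 and chr9:7558456-7568485. Their levels are compared below, and the bases before their start sites are shown because the levels of Mmp12 and Mmp13 were correlated across libraries. Each run holds the 110 bases before a RefSeq start site on GRCm38.p6, 5′ to 3′. Capitals mark TGAGTCA or its reverse complement TGACTCA, the core of the site bound by AP-1, the FOS and JUN family of transcription factors, searched on both strands in the 250 bases before the start.
Mmp13, chr9:7272404-7272513: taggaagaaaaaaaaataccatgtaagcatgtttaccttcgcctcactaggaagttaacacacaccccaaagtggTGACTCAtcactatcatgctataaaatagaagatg
Mmp12, chr9:7347264-7347373: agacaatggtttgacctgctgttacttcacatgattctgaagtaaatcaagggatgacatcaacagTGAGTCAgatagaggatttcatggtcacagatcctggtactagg
Mmp12, chr9:7344287-7344396: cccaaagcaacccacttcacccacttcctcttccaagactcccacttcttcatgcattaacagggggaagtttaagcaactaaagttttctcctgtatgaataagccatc
Mmp8, chr9:7558319-7558428: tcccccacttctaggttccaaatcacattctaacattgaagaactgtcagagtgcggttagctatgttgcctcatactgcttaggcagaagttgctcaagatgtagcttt
The motif began 35 bases before the start of Mmp13 and 44 bases before the downstream of the 2 starts of Mmp12. The 250-base windows of Mmp8 and of the upstream Mmp12 start did not hold these letters, nor did those of Mmp14, Timp1, Timp2 and Timp3. Of all 32851 windows of this length, 1466 (4.46%) held the motif. A match is a description of the letters and not of a bound site.

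The 10 genes spanned a wide range of levels. Per length, with the mean and SD over 18 libraries, Timp2 was highest at 133 ± 49.0 CPM per kb, followed by Mmp12 at 89.1 ± 62.9 and Mmp9 at 35.8 ± 34.5 CPM per kb. This order turned by group. Mmp12 had a higher mean than Timp2 in HDAC3 f/f untreated (111.0 against 95.9 CPM per kb) and with ACs (102.4 against 96.3). The same held in M-HDAC3-/- with NACs (102.3 against 91.3 CPM per kb), and Timp2 was higher in the other groups. In M-HDAC3-/- untreated, Mmp9 (63.5) was above Mmp12 (52.6 CPM per kb). Timp1 (19.6 ± 15.7), Mmp14 (19.1 ± 10.4) and Mmp19 (11.8 ± 11.9 CPM per kb) were intermediate. Mmp13 was at 4.98 ± 5.23 CPM per kb. Mmp8 (2.02 ± 0.98), Mmp2 (0.91 ± 0.37) and Timp3 (0.35 ± 0.39 CPM per kb) were the lowest, and Timp3 had between 2 and 203 counts in a library. In the order of the 6 group means of each gene, neighbouring groups overlapped in their ranges for every gene, with the exception of Timp2 between HDAC3 f/f with NACs and HDAC3 f/f with ACs.

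**Figure D1:**
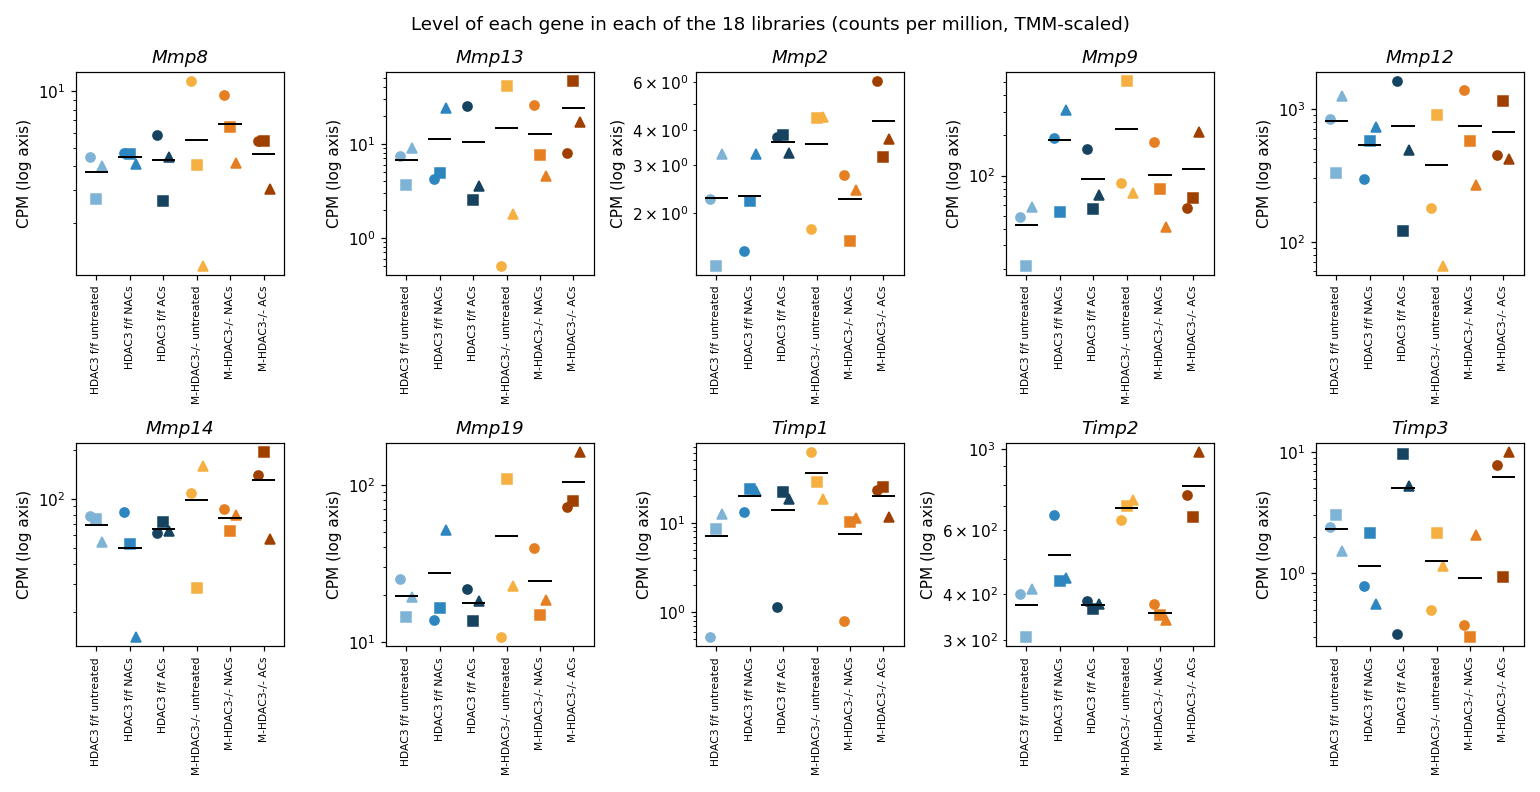
Level of each MMP and TIMP gene in each library, in CPM scaled by the TMM method (log axis), by group. Points are libraries (circle, square and triangle for replicates 1, 2 and 3) and bars are group means. The group mean of Mmp19 is highest in M-HDAC3-/- with ACs, whose libraries are at 72.7 to 160.3 CPM, and Timp1 is near 1 CPM in 3 libraries of 3 different groups.

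With ACs, Mmp19 rose in libraries labelled M-HDAC3-/-, compared with those labelled HDAC3 f/f, and no other member passed the test. Mmp19 (chr10:128790953-128800824, plus strand) was at 72.7, 78.9 and 160.3 CPM in M-HDAC3-/- libraries and at 21.7, 13.6 and 18.2 CPM in HDAC3 f/f libraries. All 3 M-HDAC3-/- libraries were above all 3 HDAC3 f/f libraries. The fitted log2 fold change was 2.48 (SE 0.44), with an adjusted p of 0.0153 (quasi-likelihood test of edgeR, adjusted by Benjamini-Hochberg over 12304 genes). In this comparison 3.75% of all genes tested were called and 0.788% were called higher, beside 1 of the 10 members. Of the 461 called genes 97 were higher, and after an offset for GC and length 43.2% of the called genes were. Without M-HDAC3-/- ACs replicate 1 the fold change of Mmp19 was 2.74 with an adjusted p of 0.314, and 0 genes of the whole table were then called.

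Timp2 was the other member whose groups did not overlap with ACs, at 748.8, 652.6 and 979.9 CPM in M-HDAC3-/- libraries and 383.4, 364.9 and 377.0 CPM in HDAC3 f/f libraries. The HDAC3 f/f libraries lay close together and all below the M-HDAC3-/- libraries. Its fitted log2 difference was 1.02 (SE 0.39, adjusted p = 0.119), and DESeq2 called it (adjusted p = 0.0327). Groups that did not overlap made up 28.3% of all genes tested, 14.8% with M-HDAC3-/- higher, beside these 2 of 10 members. Of the enzymes, Mmp14 had a fitted log2 difference of 0.96 (SE 0.45, adjusted p = 0.194), with 141.6, 193.9 and 56.5 CPM in M-HDAC3-/- libraries and 61.9, 71.7 and 63.4 CPM in HDAC3 f/f libraries. Replicate 3 of M-HDAC3-/- with ACs lay below all HDAC3 f/f libraries for this gene. Mmp13 had a fitted log2 difference of 1.17 (SE 0.98, adjusted p = 0.497), and 2.97 (SE 0.68, adjusted p = 0.0158) without HDAC3 f/f ACs replicate 1. The remaining members (Mmp2, Mmp8, Mmp9, Mmp12, Timp1 and Timp3) had log2 differences between −0.16 and 0.49, with adjusted p of 0.729 or more. In all, 9 of the 10 members were fitted higher, with a median of 0.34 beside −0.01 over all genes tested.

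Among 11 tested activators, inhibitors and clearance receptors of MMPs, edgeR called 1 higher and 0 lower, with 9 fitted higher and a median of 1.03. For 5 of them the unadjusted p was under 0.05, and DESeq2 and limma-voom called 3 and 1. It was Plau, the urokinase that makes plasmin, at 134.9 ± 43.1 CPM against 30.3 ± 19.2 CPM (SD, n = 3) and with a log2 difference of 2.12 (SE 0.48, adjusted p = 0.0285 by edgeR). Of 12 ADAM and ADAMTS genes, 1 was called higher. It was Adam8, a membrane proteinase of leukocytes, at 1006 ± 458.1 CPM against 310.1 ± 60.3 CPM, and limma-voom called 0 of these genes. Among 19 matrix substrates, 10 AP-1 subunits and 4 other MMP genes, edgeR called 0, with an unadjusted p under 0.05 for 2, 4 and 1 genes. DESeq2 called 1, 4 and 1 of these genes and limma-voom 0.

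Markers of other cell types were looked at beside these results. Of 5 tested osteoclast markers, 2 were called higher with ACs in M-HDAC3-/- libraries, Acp5 (log2 fold change 1.73) and Ctsk (1.70). All 5 were fitted higher (median 1.33), and DESeq2 and limma-voom called 2 and 1. The summed level of the 8 listed markers was 214.0 to 257.2 CPM in M-HDAC3-/- libraries with ACs and 55.6 to 119.8 CPM in HDAC3 f/f libraries with ACs. Acp5, Ctsk, Dcstamp, Atp6v0d2 and Nfatc1 had counts in all 18 libraries. Calcr, Oscar and Ocstamp, the other listed markers, were at 0 counts in 15, 16 and 6 libraries. Itgax, a dendritic cell and macrophage integrin, was called higher (2.64, adjusted p = 0.0153 by edgeR). It was the 1 tested of 8 listed dendritic cell markers. Of the others, Zbtb46 had counts in all 18 libraries, at 0.10 to 1.95 CPM. Flt3, Xcr1, Clec9a, Cd209a, Siglech and Ccr7 were each at 0 in at least 1 library and did not pass 0.97 CPM. All 5 endothelial markers were fitted higher (median 0.87), as were 8 of 11 fibroblast markers (median 0.58). Of 11 neutrophil markers 8 were fitted lower (median −0.77). EdgeR called 0, 0 and 1 of these 3 lists. The part of these cells in the level of Mmp19 was not tested. The share of mitochondrial counts was 1.19%, 0.49% and 0.69% in M-HDAC3-/- libraries with ACs and 0.48%, 0.35% and 0.34% in HDAC3 f/f libraries with ACs, without overlap and highest in the replicate whose removal ended the call, and its part was not tested. The gene model of Tmem198b shares exon sequence with Mmp19 on the opposite strand, and the strand setting of the counting is not given in the sources used here. Tmem198b was at 11.8, 4.46 and 33.2 CPM in M-HDAC3-/- libraries with ACs and at 8.38, 23.7 and 25.6 CPM in HDAC3 f/f libraries with ACs, so that its groups overlapped. Gm47093, also on the opposite strand, spans Mmp19 with shared exon sequence, and its level was not analysed here.

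With NACs, 0 of 9 tested members passed the test between the genotype labels, beside 0.864% of 11923 genes. Timp3 was not tested because its counts were too low. No member had an unadjusted p under 0.05 by edgeR, and DESeq2 and limma-voom also called 0. Timp1 and Timp2 had groups that did not overlap, both lower in M-HDAC3-/- libraries, beside 27.0% of all genes tested (11.9% lower). The share of mitochondrial counts was 0.577%, 0.409% and 0.452% in M-HDAC3-/- libraries and 0.325%, 0.404% and 0.294% in HDAC3 f/f libraries. These did not overlap either, and the part of this share was not tested. Of 11 fibroblast markers, 9 were fitted lower and 0 called, with a median of −0.60 and a sum of 10.2 to 59.0 CPM against 40.7 to 85.0 CPM, and their part was not tested. Of these markers 3 had an unadjusted p under 0.05, and DESeq2 and limma-voom called 0. Timp1 (chrX:20870166-20874735, plus strand), an inhibitor secreted by many cells, was at 0.79, 10.3 and 11.2 CPM in M-HDAC3-/- libraries and at 13.1, 23.6 and 22.7 CPM in HDAC3 f/f libraries. Replicate 1 of M-HDAC3-/- lay far below the other libraries, and the log2 difference was −1.42 (SE 0.85, adjusted p = 0.326), reaching −1.90 (adjusted p = 0.0227) without M-HDAC3-/- NACs replicate 3. With no filter on low counts it passed (−1.36, adjusted p = 0.0355). Blocking on replicate number took it to −1.91 (adjusted p = 0.0102), but it did not pass when the GC and length offset was added (adjusted p = 0.287). Timp2 (chr11:118301069-118355740, minus strand), an inhibitor that also takes part in the activation of pro-MMP2 by MMP14, was at 375.8, 351.6 and 339.7 CPM in M-HDAC3-/- libraries and 659.2, 436.7 and 443.1 CPM in HDAC3 f/f libraries. Its log2 difference was −0.50 (SE 0.34, adjusted p = 0.341). Mmp9 had a log2 difference of −0.84 (adjusted p = 0.502), and −1.60 (adjusted p = 0.0347) without M-HDAC3-/- NACs replicate 1. Adam17, a sheddase of cell surface proteins, was the 1 gene called among 10 ADAM and ADAMTS genes (1.54, adjusted p = 0.0445). Limma-voom called 0 of them, and 0 genes of the whole table were called with all 18 libraries in 1 fit or without HDAC3 f/f NACs replicate 1, and 1 after the GC and length offset. The remaining 6 tested members (Mmp2, Mmp8, Mmp12, Mmp13, Mmp14 and Mmp19) lay between −0.13 and 0.65 on the log2 scale.

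In untreated cells, Mmp9 was higher in libraries labelled M-HDAC3-/-, near the threshold of the test and with a large part of the difference in 1 library. Mmp9 (chr2:164940780-164955850, plus strand) was at 88.5, 511.5 and 74.0 CPM in M-HDAC3-/- libraries and at 49.1, 21.1 and 58.4 CPM in HDAC3 f/f libraries. The groups did not overlap, and replicate 2 of M-HDAC3-/- was far above the other libraries. As log2, the difference was 2.40 (SE 0.72, adjusted p = 0.0482 by edgeR), beside 11.6% of 12101 genes called and 3.04% called higher. Leaving out any of the 6 libraries ended the call (adjusted p from 0.0618 to 0.305), and without M-HDAC3-/- replicate 2 the log2 difference was 0.83 (SE 0.52, adjusted p = 0.305). The call was also lost with library totals alone (1.83, adjusted p = 0.0713), where the median over all genes moved from 0.06 to −0.42, by limma-voom (1.84, adjusted p = 0.0628), with all 18 libraries in 1 fit (2.39, adjusted p = 0.0521) and after the GC and length offset (1.68, adjusted p = 0.234). Blocking on replicate number also ended the call (1.64, adjusted p = 0.157, and 1.09 with an adjusted p of 0.554 together with the offset). Of all called genes 26.2% were higher, 45.8% with DESeq2 size factors and 2.2% with library totals alone.

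Timp1 and Timp2 had ranges that did not overlap in untreated cells, without passing the test. Timp1 was at 61.1, 28.3 and 18.3 CPM in M-HDAC3-/- libraries and at 0.53, 8.52 and 12.5 CPM in HDAC3 f/f libraries, with a log2 difference of 2.23 (SE 0.77, adjusted p = 0.0665), and DESeq2 and limma-voom called it (adjusted p of 0.0101 and 0.0389). Timp2 was at 640.4, 699.2 and 727.0 CPM in M-HDAC3-/- libraries and 400.4, 305.9 and 414.7 CPM in HDAC3 f/f libraries, with a log2 difference of 0.79 (SE 0.39, adjusted p = 0.154), and DESeq2 called it (adjusted p = 0.048). For both genes the lowest M-HDAC3-/- library exceeded the highest HDAC3 f/f library. Of 10 fibroblast markers 6 were fitted higher, with a median of 0.82 and a sum of 87.7 to 145.5 CPM against 7.89 to 112.4 CPM. Of these edgeR called 0, with an unadjusted p under 0.05 for 2, and DESeq2 and limma-voom called 2 and 1, and their part in the level of Timp1 was not tested. With Mmp9, 3 of 10 members had groups that did not overlap, beside 40.9% of all genes tested (18.2% higher). Timp3 (chr10:86300372-86349506, plus strand) lay the other way, with a log2 difference of −0.85 (SE 0.68, adjusted p = 0.362). Mmp12 had a log2 difference of −1.05 (SE 0.78, adjusted p = 0.331), and −2.79 (adjusted p = 0.0481) without M-HDAC3-/- untreated replicate 2. Mmp19 had 1.27 (SE 0.70, adjusted p = 0.196), and 1.60 (adjusted p = 0.00576) without M-HDAC3-/- untreated replicate 1. The remaining members (Mmp2, Mmp8, Mmp13 and Mmp14) had log2 differences from 0.35 to 1.20, with adjusted p of 0.395 or more. Further calls among genes of the pathway and markers were all lost after the GC and length offset and without HDAC3 f/f replicate 2, HDAC3 f/f replicate 3 or M-HDAC3-/- replicate 3, where 0 genes of the whole table were called, against 1404 with all libraries. Of the other genes of the pathway, Mmp27, another MMP, fell by 2.15 on the log2 scale (adjusted p = 0.0396), Adam10 and Adam17, the main sheddases of cell surface proteins, fell by 1.74 and 1.70, and Adam15 and the AP-1 subunit Junb rose (1.47 and 1.52). Among 12 activators, inhibitors and clearance receptors edgeR called 0, with an unadjusted p under 0.05 for 3, and DESeq2 and limma-voom called 2 and 1. Among markers of cell types, the macrophage genes Lyz2 and Mrc1 fell (−1.94 and −1.51), and Dcstamp and Itgax rose (3.29 and 3.15). The Lyz2 locus carries the Cre in M-HDAC3-/- mice, so that Lyz2 differs between the genotypes by design. Its means in M-HDAC3-/- and HDAC3 f/f were 2374 and 8350 CPM untreated, 8925 and 3982 CPM with NACs, and 6889 and 3869 CPM with ACs. The part of the Cre in these levels was not tested. As lists, the 10 macrophage markers were fitted 5 higher and 5 lower (median 0.12) and the 5 osteoclast markers 3 higher and 2 lower (median 0.12). The share of mitochondrial counts was 0.27%, 0.35% and 0.43% in M-HDAC3-/- untreated libraries and 0.62%, 0.57% and 0.50% in HDAC3 f/f untreated libraries, without overlap. The part of other cells and of this share in the level of Mmp9 was not tested.

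In libraries labelled M-HDAC3-/-, Mmp19 rose with ACs when compared with NACs. The NACs libraries held 39.8, 14.8 and 18.6 CPM, all below the 72.7 to 160.3 CPM with ACs given above. On the log2 scale the rise was 2.09 (SE 0.43, adjusted p = 0.0042 by edgeR), beside 7.38% of 12244 genes called and 2.65% called higher. Of all called genes 36.0% were higher, and 13.3% with library totals alone. Without M-HDAC3-/- ACs replicate 1 it was 2.27 (adjusted p = 0.105), and without replicate 3 it was 1.66 (adjusted p = 0.0575). With all 18 libraries in 1 fit the adjusted p was 0.102.

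No TIMP passed the test in this comparison. Timp2 had a log2 difference of 1.17 (SE 0.38, adjusted p = 0.0539, and 0.00901 by DESeq2), with every AC library above every NAC library, and 1.27 (adjusted p = 0.0112) without M-HDAC3-/- ACs replicate 2. Timp1 had 1.47 (SE 0.78, adjusted p = 0.283), its NAC libraries at 0.79 to 11.2 CPM and its AC libraries at 11.7 to 25.2 CPM, and 1.90 (adjusted p = 0.0297) without M-HDAC3-/- NACs replicate 3. Timp3, at 7.81, 0.925 and 9.93 CPM with ACs and 0.37, 0.30 and 2.07 CPM with NACs, had 2.66 (SE 0.93, adjusted p = 0.115) and overlapped because of replicate 2 with ACs. Its value without that replicate was 3.16 (adjusted p = 2.02e-05), and it also passed without M-HDAC3-/- NACs replicate 1 or replicate 3 (2.28 and 4.09). Mmp2 (chr8:92827291-92853420, plus strand) did not overlap either, at 6.04, 3.20 and 3.71 CPM with ACs and 2.75, 1.59 and 2.42 CPM with NACs (log2 difference 0.93, SE 0.49, adjusted p = 0.230). These were 4 of 10 members, beside 29.4% of all genes tested whose groups did not overlap (14.6% higher). Mmp13 had 0.92 (adjusted p = 0.537), and 2.01 (adjusted p = 0.0189) without M-HDAC3-/- NACs replicate 1. Mmp8, Mmp9, Mmp12 and Mmp14 had log2 differences from −0.51 to 0.79.

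Substrates of MMPs were also called in this comparison, and without M-HDAC3-/- ACs replicate 1, 0 genes of the whole table were called, against 904 with all libraries, so that each call below was lost. Of 18 tested matrix substrates, 7 were called higher and 0 lower, with a median of 1.70 beside 0.09 over all genes tested. They were the collagen genes Col1a2 (2.48), Col3a1 (2.26), Col4a1 (2.11) and Col4a2 (1.53), Fn1 for fibronectin (1.86), Hspg2 for perlecan (1.92) and Sparc (1.49). Fibroblast markers, 2 of which are among these genes, moved alike, with 4 of 11 called higher (Col1a2, Col3a1, Thy1 and Pdgfrb) and a median of 1.94. Their summed level was 10.2, 46.6 and 59.0 CPM with NACs and 257.9, 103.7 and 97.3 CPM with ACs. All 11 tested fibroblast markers were fitted higher. Dcn, Pdgfrb, Loxl1, Col1a1, Col1a2 and Col3a1 had counts in all 18 libraries. Pdgfra, Thy1, Postn, Fbln1 and Fbln2 were at 0 in 1 or 2 libraries. Lum, a fibroblast proteoglycan, was at 0 in 13 and did not pass 0.44 CPM. Of 5 osteoclast markers, 2 were called higher (Dcstamp and Acp5), and Itgax (2.47), the endothelial gene Kdr (1.72) and the neutrophil gene Ltf (1.38) rose too. The 12 neutrophil markers as a list had a median of −0.58, with 8 fitted lower. Of 12 activators, inhibitors and clearance receptors, 2 were called higher and 1 lower. Furin, the convertase that activates pro-MMP14, rose by 1.22. Serpinb2, an inhibitor of urokinase, fell by 2.10 at low levels, with means of 2.08 CPM with NACs and 0.46 CPM with ACs. The AP-1 subunits Jun (1.20) and Junb (1.42) and the proteinase Adam8 (1.36) rose. These calls are by edgeR. Limma-voom called 0 endothelial, 0 neutrophil and 0 ADAM and ADAMTS genes, and DESeq2 called 1, 1 and 2. Of the activators, inhibitors and clearance receptors, limma-voom called 1 and DESeq2 3. The part of any other cell type in the levels of the members was not tested.

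In libraries labelled HDAC3 f/f, 0 members and 0 of 11844 genes were called between ACs and NACs by edgeR, DESeq2 or limma-voom, and 493 genes had an unadjusted p under 0.05 by edgeR. Among the members 1 had such a p, Timp3, at 0.31, 9.59 and 5.25 CPM with ACs and 0.78, 2.13 and 0.56 CPM with NACs (log2 difference 2.15, SE 0.87, adjusted p = 0.898). Replicate 1 with ACs was the lowest of the 6 libraries. Mmp2, at 3.77, 3.84 and 3.31 CPM with ACs and 1.46, 2.21 and 3.29 CPM with NACs, and Timp2, lower with ACs, did not overlap, beside 10.4% of all genes tested (5.47% higher and 4.89% lower). Mmp19 had a log2 difference of −0.59 (SE 0.47, adjusted p = 0.898), with 13.9, 16.6 and 51.9 CPM with NACs. Of 17 tested matrix substrates, 16 were fitted higher with ACs, with a median of 1.09 beside 0.05 over all genes tested. For 2 of them the unadjusted p was under 0.05 by edgeR. When the genotypes were compared for this change, edgeR called 0 of 19 tested substrates (18 fitted higher, median 0.66).

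NACs compared with no treatment gave 1 call in libraries labelled HDAC3 f/f. Mmp9 was at 191.4, 53.4 and 308.8 CPM with NACs and at 49.1, 21.1 and 58.4 CPM untreated. Replicate 2 with NACs lay within the untreated range, and the other libraries with NACs lay above it. On the log2 scale the rise was 2.06 (SE 0.48, adjusted p = 0.0218 by edgeR), beside 8.52% of 11912 genes called and 4.19% called higher. The adjusted p passed the threshold no longer without HDAC3 f/f untreated replicate 2 or 3 (1.79 and 2.28) and without HDAC3 f/f NACs replicate 1 or 3 (1.97 and 1.43), with adjusted p from 0.0553 to 0.161. It was also lost with library totals alone (1.71, adjusted p = 0.0696), where the median over all genes moved from −0.10 to −0.47, with all 18 libraries in 1 fit (2.11, adjusted p = 0.166) and after the GC and length offset (1.55, adjusted p = 0.201). Of all called genes 49.2% were higher, and 64.0% with DESeq2 size factors. The share of mitochondrial counts was 0.33%, 0.40% and 0.29% with NACs, below the untreated libraries without overlap, and its part was not tested. Timp1 and Timp2 did not overlap, both higher with NACs (1.43 and 0.40 on the log2 scale, adjusted p of 0.364 and 0.499), beside 29.7% of all genes tested (13.8% higher). Limma-voom called Timp1 (2.14, adjusted p = 0.0479). Around the members, Adam17, Adam9 and Adam10 fell (−1.47, −1.43 and −1.39), Adam15, Fosb and Jund rose (1.27, 1.98 and 1.44), and of the cell type markers Acp5, Dcstamp, Itgax and the B cell gene Cd79b rose (1.93, 2.47, 1.93 and 1.63). The 5 osteoclast markers as a list were fitted 2 higher and 3 lower (median −0.05). DESeq2 and limma-voom each called 1 of these 5 markers and 0 of 3 tested B cell markers. With library totals alone, all 18 libraries in 1 fit or the GC and length offset, 0 genes of the whole table were called, and with 1 library left out 21 to 4232, against 1015.

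In libraries labelled M-HDAC3-/-, 0 members were called between NACs and no treatment by edgeR, beside 6.54% of 12143 genes, and 2 had an unadjusted p under 0.05. DESeq2 called both of them and limma-voom 0. They were Timp1 (−2.14, SE 0.80, adjusted p = 0.115) and Timp2 (−0.78, SE 0.29, adjusted p = 0.108), whose libraries with NACs were all below the untreated ones, beside 38.7% of all genes that did not overlap (16.9% lower). Without M-HDAC3-/- untreated replicate 1, Timp2 passed (−0.86, adjusted p = 0.027). Adam10 and Adam17 rose (1.75 and 1.90) and Junb fell by 1.35, while of the cell type markers Lyz2 and Mrc1 rose (2.12 and 1.80) and the fibroblast gene Thy1 fell by 2.52. The 10 macrophage markers as a list were fitted 4 higher and 6 lower (median −0.30), and the 10 fibroblast markers 2 higher and 8 lower (median −1.26). With DESeq2 size factors, after the GC and length offset, or with any single library other than M-HDAC3-/- untreated replicate 1 left out, 0 genes of the whole table were called, against 794. Untreated libraries stand in both the comparison of genotypes and the comparison of treatments, so these values are not independent of each other.

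ACs compared with no treatment gave 0 called members in either genotype. With HDAC3 f/f labels 0 of 12199 genes were called by edgeR, 1551 had an unadjusted p under 0.05, and DESeq2 and limma-voom called 4 and 0. With M-HDAC3-/- labels 0 of 12136 genes were called by edgeR, 1761 had an unadjusted p under 0.05, and DESeq2 and limma-voom called 3 and 0. The member with the lowest p was Mmp9 in HDAC3 f/f (1.11, SE 0.46, adjusted p = 0.393) and Timp3 in M-HDAC3-/- (2.30, SE 0.77, adjusted p = 0.311). Mmp19 had a log2 difference of −0.22 (SE 0.32) in HDAC3 f/f and of 1.24 (SE 0.72) in M-HDAC3-/-, with untreated M-HDAC3-/- libraries at 10.8, 108.7 and 22.9 CPM. Replicate 2 of untreated M-HDAC3-/- lay within the range with ACs. Mmp13 in M-HDAC3-/- had 0.83 (adjusted p = 0.783), and 4.37 (adjusted p = 0.046) without M-HDAC3-/- untreated replicate 2. The untreated libraries then left, replicates 1 and 3, held only 2 and 36 counts of Mmp13 (0.50 and 1.79 CPM). Mmp2 in HDAC3 f/f was the 1 member whose groups did not overlap, beside 15.5% of all genes (7.17% higher), and in M-HDAC3-/- there was none, beside 21.5%.

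**Figure D2:**
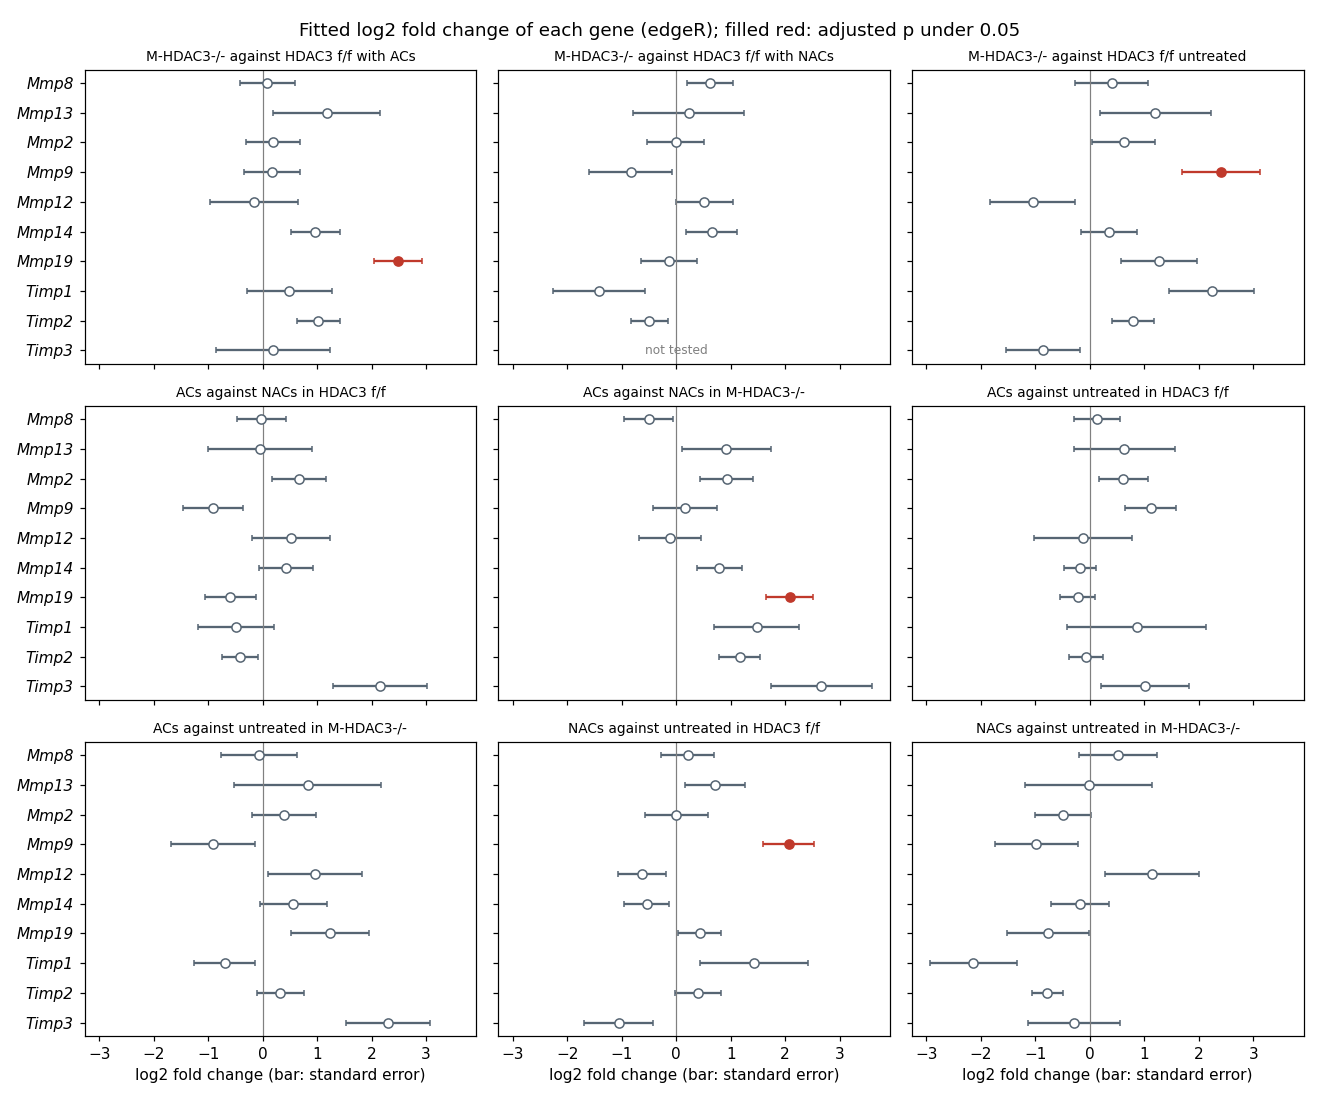
Fitted log2 fold change of each gene in the 9 comparisons of 2 groups, with its standard error (edgeR). Filled red points passed an adjusted p of 0.05. Mmp19 passed with ACs between genotype labels (2.48) and between ACs and NACs in M-HDAC3-/- (2.09), and Mmp9 in untreated cells (2.40) and between NACs and no treatment in HDAC3 f/f (2.06).

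The difference of differences was tested for each pair of treatments, and 0 members were called. For ACs against NACs, 10 of 13076 genes were called (0.0765%), and the 2 members with an unadjusted p under 0.05 were Mmp19 (2.71, SE 0.69, adjusted p = 0.0624) and Timp2 (1.61, SE 0.46, adjusted p = 0.081). DESeq2 called both and limma-voom 0. Leaving out HDAC3 f/f NACs replicate 2 brought Mmp19 to an adjusted p of 0.0326, and leaving out M-HDAC3-/- ACs replicate 2 brought both genes under the threshold (0.0363 and 0.0393). For NACs against no treatment, 34.8% of 13005 genes were called, 63.3% of them higher, and 45.6% with DESeq2 size factors and 90.0% with library totals alone. Mmp9 (−2.92, adjusted p = 0.0827), Timp1 (−3.43, adjusted p = 0.0786) and Timp2 (−1.06, adjusted p = 0.0762) had an unadjusted p under 0.05, DESeq2 called these 3 and limma-voom 1. Single libraries decided these calls too, since Timp1 passed without HDAC3 f/f untreated replicate 1, Mmp9 without HDAC3 f/f NACs replicate 2 or M-HDAC3-/- NACs replicate 1, Timp2 without HDAC3 f/f NACs replicate 3 or M-HDAC3-/- untreated replicate 1, and Mmp12 without M-HDAC3-/- untreated replicate 2, with adjusted p from 0.0157 to 0.0478. Of the pathway lists, the proteinase genes Adam17 (3.50), Adam9 (3.40), Adam10 (3.28) and Mmp27 (2.90) and the clearance receptor Lrp1 (1.43) were called higher. Called lower were Adam15 (−2.05), the AP-1 subunits Fosb (−2.81), Batf3 (−2.79), Jund (−2.565) and Junb (−2.11) and the MMP inducer Bsg (−1.47). Of the cell type markers, 3 of 10 macrophage markers were called higher and 2 lower, and 3 of 11 fibroblast, 2 of 5 osteoclast, 2 of 4 B cell and 1 of 12 neutrophil markers and Itgax were called lower. For ACs against NACs the 1 marker called was Itgax (4.00). For ACs against no treatment, 0 of 13225 genes were called by edgeR, and 0 members had an unadjusted p under 0.05 or were called by DESeq2 or limma-voom.

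**Figure D3:**
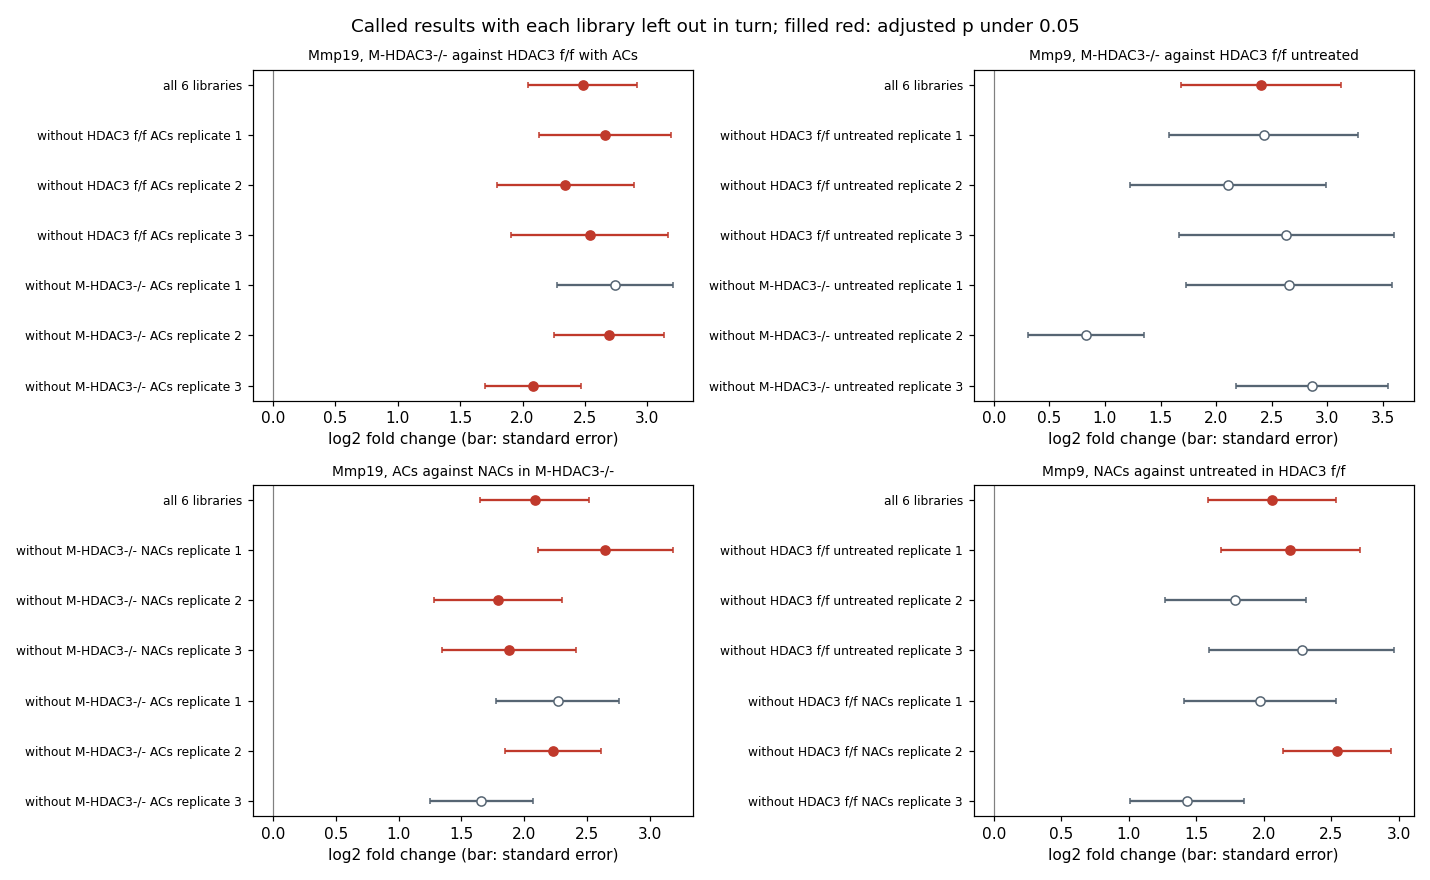
Log2 fold change with its standard error (edgeR) of the 4 called results, with all 6 libraries and with each library left out. Filled red points passed an adjusted p of 0.05. Mmp9 in untreated cells passed in none of the 6 fits and fell to 0.83 without M-HDAC3-/- untreated replicate 2, while Mmp19 with ACs lost its call in 1 of 6.

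The collagenase Mmp13 and the elastase Mmp12 moved together over the 18 libraries. Mmp13 was at 7.42, 3.62 and 9.11 CPM in HDAC3 f/f untreated, 4.26, 4.95 and 24.4 CPM with NACs and 25.7, 2.56 and 3.57 CPM with ACs. In M-HDAC3-/- it was at 0.50, 41.7 and 1.79 CPM untreated, 26.1, 7.66 and 4.61 CPM with NACs and 7.96, 46.8 and 17.0 CPM with ACs. In 5 of the 6 groups, HDAC3 f/f untreated being the exception, at least 1 library was more than 4 times another.

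Mmp12 was at 833.9, 328.9 and 1247 CPM in HDAC3 f/f untreated, 293.8, 571.4 and 729.1 CPM with NACs and 1615, 120.6 and 488.0 CPM with ACs. In M-HDAC3-/- it was at 178.7, 897.1 and 65.9 CPM untreated, 1380, 575.1 and 265.8 CPM with NACs and 447.9, 1152 and 419.0 CPM with ACs. The library with the most Mmp12 was also the library with the most Mmp13 in each of the 6 groups. On log2(CPM + 1), Pearson's r between Mmp12 and Mmp13 over the 18 libraries was 0.79 (permutation p = 1e-04) and Spearman's rho 0.84 (permutation p = 5e-05), with adjusted p of 0.0021 for both over 85 relations. Without the 2 libraries farthest from the median of Mmp12, r was 0.79, and for deviations from group means it was 0.84. Mmp13 and Mmp19 also moved together (r = 0.74, rho = 0.76, adjusted permutation p of 0.0084 and 0.0054), with r = 0.67 without the farthest libraries and 0.83 for deviations from group means. Mmp8, also on chromosome 9, had r = 0.49 with Mmp12 (adjusted permutation p = 0.17) and r = 0.17 with Mmp13 (adjusted permutation p = 0.73).

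The libraries with the most Mmp13 were among those with little Hdac3. HDAC3 f/f NACs replicate 3, HDAC3 f/f ACs replicate 1, M-HDAC3-/- untreated replicate 2, M-HDAC3-/- NACs replicate 1 and M-HDAC3-/- ACs replicates 2 and 3 held the 6 highest levels of Mmp13, 17.0 to 46.8 CPM, and Hdac3 at 4.66 to 17.9 CPM. HDAC3 f/f untreated replicate 1 went against this, with the least Hdac3 of all libraries (3.38 CPM) and Mmp13 at only 7.42 CPM. Hdac3 fell into 2 ranges, 3.38 to 17.9 CPM in 7 libraries and 29.7 to 74.6 CPM in 11, so that no coefficient over all libraries is given. Within the 11 libraries Mmp12 had r = −0.70 with Hdac3 (permutation p = 0.017, adjusted p = 0.068 over 4 relations) and rho = −0.51 (permutation p = 0.11), with r = −0.42 without the 2 libraries farthest from the median of Hdac3. Within the 7 libraries Mmp12 had r = −0.58 (exact permutation p = 0.17). Without the 2 farthest of these 7 it was −0.98, a value from few libraries that was not tested. Mmp13 had r = −0.37 (permutation p = 0.26) within the 11 and 0.46 (exact permutation p = 0.31) within the 7 libraries, and −0.27 and −0.45 without the 2 farthest of each. The relation was sought after the levels had been seen, and the libraries with little Hdac3 carry labels of both genotypes.

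Mmp19 followed the osteoclast markers across libraries. With the summed level of the 8 markers, Mmp19 had r = 0.88 (rho = 0.82, adjusted permutation p of 0.00085 and 0.0023 over 85 relations) and Mmp13 r = 0.80 (rho = 0.83, adjusted permutation p = 0.0021 for both). Without the 2 libraries farthest from the median, r was 0.82 and 0.70. For deviations from group means it was 0.84 and 0.85. The genes most like Mmp19 over the 18 libraries, among genes with a mean of at least 1 CPM, were Vim for vimentin (r = 0.91), the transcription factor gene Egr2 (0.90) and Arhgap25 (0.90). For Mmp12 they were Ccr1, a chemokine receptor gene (0.90), Cd36, a scavenger receptor gene (0.86), and Anxa1 for annexin A1 (0.85). For Mmp13 they were Tmem154, Fbxo32 and Gm16104 (0.87 to 0.86). For Mmp9 they were Plin2 for the lipid droplet protein perilipin 2 (0.92), B430306N03Rik (0.90) and Hilpda, a lipid droplet gene (0.90). For Mmp14 (chr14:54431612-54441265, plus strand) they were Isg15, Camkk2 and Itpripl1 (0.86 to 0.80), and for Mmp2 and Mmp8 the highest likeness was 0.79 and 0.77.

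The level of Timp1 was near 1 CPM in 3 libraries and well above it in the others. It was at 0.53 CPM in HDAC3 f/f untreated replicate 1, 1.15 CPM in HDAC3 f/f ACs replicate 1 and 0.79 CPM in M-HDAC3-/- NACs replicate 1, and at 8.52 to 61.1 CPM in the other 15 libraries. These 3 libraries, of 3 different groups, also had the lowest sum of the 12 fibroblast markers, 7.89 to 10.2 CPM, beside 40.7 to 257.9 CPM in the other 15. They also held the least Hdac3 of all libraries (3.38, 7.12 and 4.66 CPM), and all are numbered replicate 1. Correlations of deviations between them were 0.461, 0.487 and 0.486, and the part of what they share was not tested. Timp2 was at 375.8 to 400.4 CPM in the same 3 libraries, within its range of 305.9 to 979.9 CPM in the others. Within the 15 libraries, Timp1 had r = 0.48 with the fibroblast markers (permutation p = 0.072, adjusted p = 0.11 over 3 relations), Timp3 had r = 0.65 (rho = 0.54, permutation p = 0.0097 and 0.039, adjusted p = 0.029 and 0.12), and Timp2 had r = 0.13 (permutation p = 0.64). Without the 2 libraries farthest from the median of the markers, r was 0.51 for Timp1 and 0.37 for Timp3, so that the relation of Timp3 rests on those libraries. With the summed neutrophil markers Timp1 had r = 0.72 over 18 libraries (adjusted permutation p = 0.015) but rho = 0.45 (adjusted permutation p = 0.27) and r = 0.41 without the 2 farthest libraries, so that the relation rests on those libraries. The part of other cells in the levels of Timp1 and Timp3 was not tested. Timp1 lies within the gene Syn1, which is on the opposite strand, shares no exon with it and was at 5.17 to 103.3 CPM (r = 0.60 with Timp1, permutation p = 0.0084, and rho = 0.40, permutation p = 0.1), and Timp3 within Syn3 on the opposite strand, with shared exon sequence and at most 0.50 CPM of Syn3.

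The genes most like each inhibitor were named by the same measure. For Timp1 they were Tpm2, Actg2 and Acta2 (r = 0.95, 0.93 and 0.93), which encode contractile proteins of smooth muscle and myofibroblasts. For Timp3 they were Antxr1, Fat1 and Postn for periostin (0.85, 0.84 and 0.78), and Postn is itself among the 12 fibroblast markers. For Timp2 they were Cyb5r3, Csf2rb, a cytokine receptor subunit of myeloid cells, and Hexa, a lysosomal enzyme (0.90 each).

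**Figure D4:**
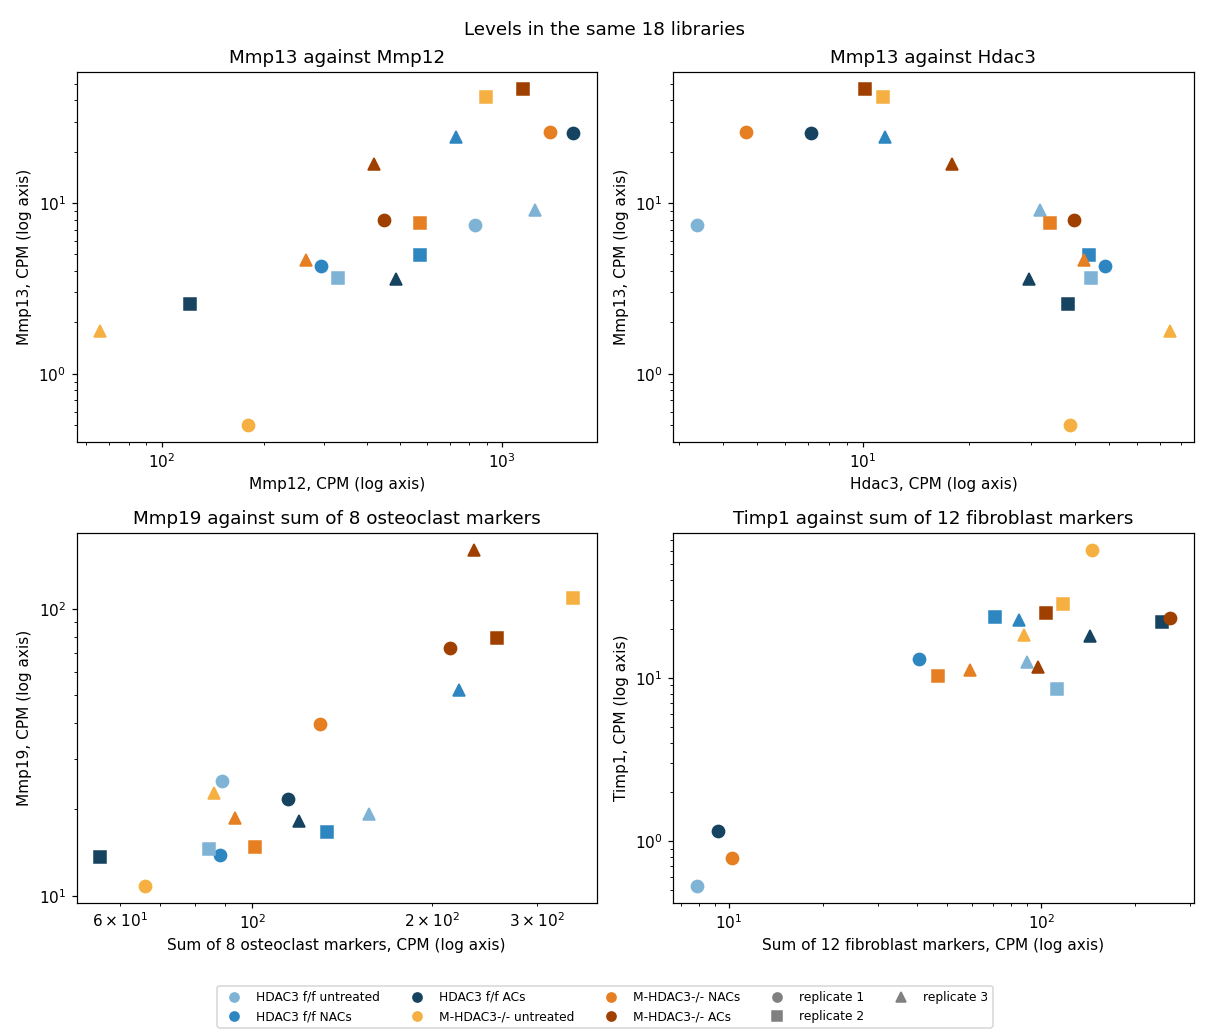
Levels of pairs of genes or marker sums in the 18 libraries, in CPM on log axes, coloured by group and shaped by replicate. Mmp13 rises with Mmp12 (r = 0.79) and Mmp19 with the sum of 8 osteoclast markers (r = 0.88), the 6 highest levels of Mmp13 lie at 4.66 to 17.9 CPM of Hdac3, and the 3 libraries with Timp1 near 1 CPM have the lowest sums of 12 fibroblast markers.

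The collagenase Mmp8, the gelatinase Mmp2 and the other MMP genes gave little. Mmp8, which neutrophils store in granules, was at 1.19 to 11.3 CPM with no call in any comparison, and its highest and lowest values were both in untreated M-HDAC3-/- libraries (11.3, 4.08 and 1.19 CPM). Elane, a gene of granulocyte precursors, fell by 2.26 on the log2 scale (adjusted p = 0.0424) with ACs between genotype labels, the 1 call by edgeR among 11 tested neutrophil markers, where limma-voom called 0, and lost without M-HDAC3-/- ACs replicate 1, while Mmp8 had 0.08 (SE 0.50) there. Of the 12 neutrophil markers, 11 had counts in all 18 libraries, from Ngp at 63.6 to 570.6 CPM and S100a9 at 15.9 to 423.5 CPM down to Ly6g, which defines mature neutrophils, at 0.05 to 2.58 CPM. The part of such cells in the level of Mmp8 was not tested. Mmp2 was at 1.29 to 6.04 CPM. Of 17 further genes, Timp4 and other MMPs, 3 to 4 passed the filter on low counts in each comparison of 2 groups, their sum was 10.9 to 37.7 CPM, and Mmp27 in untreated cells was the 1 call by edgeR among those comparisons. DESeq2 also called 1 of these genes with ACs between genotype labels, and DESeq2 and limma-voom 1 each for NACs against no treatment in M-HDAC3-/-.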

How the data were processed

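RNA of 18 BMDM libraries (6 groups, 3 libraries each) was analysed. The authors deposited whole read counts per gene, without normalization. The submitters' processing notes name Trimmomatic 0.36, STAR 2.5.2b, featureCounts of Subread 1.5.2 and GRCm38. The strand setting is not given in the sources used here. GENCODE M21 held 49056 of the gene identifiers, 44858 of them with an unchanged start and end. Counts were analysed in R 4.3.3 with edgeR 4.0.16. The libraries of each comparison were fitted alone (filterByExpr, minimum count 10 and minimum total 15, TMM scaling, robust quasi-likelihood test, Benjamini-Hochberg adjustment over all genes tested, threshold 0.05). CPM values were TMM-scaled over all libraries. Correlations used log2(CPM + 1) and 100000 permutations, exact where there were fewer than 10 libraries. An exact two-sided permutation test of 3 against 3 libraries cannot go below p = 0.1 and was not used to call a gene. Replicates are labelled as biological, and p-values measure the spread between these libraries.

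Genes named are the members, called genes of the pathway lists, markers of other cell types, and the 3 genes most like each member. The members and lists were chosen with earlier results of these data known. Alternatives were the size factors and Wald test of DESeq2 1.42.0, library totals alone, no filter, limma-voom (limma 3.58.1), all 18 libraries in 1 fit, blocking on replicate number, a GC content and length offset (mgcv 1.9.3, GC content for 99.3% of genes), that offset with the block, a pseudocount of 0.25 CPM, and each library left out in turn. The fits were tested on simulated data. Promoter sequences are from RefSeq (GRCm38.p6), with windows for 7 of the 10 members. Windows for Mmp2, Mmp9 and Mmp19 were not analysed here. Single exons, strand and splicing were not analysed here. Not every called gene of the lists is reported here.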

Additional observations from a re-analysis of the deposited data

How the results depend on the processing

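The counts of called members are given here where an alternative moved them. With ACs between genotype labels, 1 member was called and 2 by DESeq2. With NACs, 0 were called, and 1 with no filter or with a replicate block. In untreated cells, 1 was called, 0 with library totals alone, the replicate block or the offset for GC content and length (with or without the block), 2 with no filter and 3 by DESeq2. The count stayed at 1 with all 18 libraries in 1 fit and by limma-voom, but the member called changed. Mmp9 did not pass there (adjusted p of 0.0521 by edgeR and 0.0628 by limma-voom), and another member did. For ACs against NACs in M-HDAC3-/-, 1 was called, 3 with no filter or the replicate block, 2 by DESeq2 or with the offset and the block, and 0 with all 18 libraries in 1 fit. For NACs against no treatment, 1 was called in HDAC3 f/f, 2 by limma-voom or with the replicate block, and 0 with library totals alone, all 18 libraries or the offset (with or without the block). In M-HDAC3-/- 0 were called, 1 with no filter and 2 by DESeq2. For the difference of differences, 0 were called with ACs and NACs, 1 with no filter and 2 by DESeq2, and 0 with NACs and no treatment, 1 with DESeq2 size factors, limma-voom or the replicate block, 2 with all 18 libraries and 3 by DESeq2. With single libraries left out, the counts ranged from 0 to 2 with ACs between genotype labels, 0 to 1 with NACs, 0 to 1 untreated, 0 to 3 for ACs against NACs in M-HDAC3-/-, 0 to 1 for ACs against no treatment in M-HDAC3-/-, 0 to 1 for NACs against no treatment in each genotype, 0 to 2 for the difference of differences with ACs and NACs and 0 to 1 with NACs and no treatment. In the remaining comparisons they stayed at 0. The causes of these shifts were not tested.

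Counts over all genes moved more. Over the 9 alternatives that keep every library they ranged from 330 to 1367 (461 as reported) with ACs between genotype labels, 0 to 575 (103) with NACs, 0 to 3308 (1404) untreated, 252 to 1400 (904) for ACs against NACs in M-HDAC3-/-, 0 to 1784 (1015) and 0 to 2112 (794) for NACs against no treatment in HDAC3 f/f and M-HDAC3-/-, and 710 to 5559 (4530), 3 to 755 (10) and 0 to 1239 (0) for the differences of differences. In the comparisons of 2 groups with 0 calls they reached 47 for ACs against NACs in HDAC3 f/f, and 85 and 30 for ACs against no treatment in HDAC3 f/f and M-HDAC3-/-. With 1 library left out the counts listed before these ranged from 0 to 1693, 0 to 3121, 0 to 5887, 0 to 3013, 21 to 4232, 0 to 4441, 3043 to 6297, 0 to 826 and 0 to 1100 in the same order. Library totals alone took the share called higher in untreated cells from 26.2% to 2.2%. Of 1071 single values under these alternatives 0 reversed a call, 11 lost and 30 gained one, and of 894 with a library left out 0 reversed, 13 lost and 22 gained one. Same-numbered libraries of compared groups had correlations of deviations from −0.33 to 0.461, in no pair of groups all above 0.1, and in 0 of 9 pairs did every library correlate best with its own number. The numbers were not taken as pairs, and the replicate block took Mmp9 in untreated cells to 1.64 (adjusted p = 0.157, and 1.09 with 0.554 together with the offset) and Timp1 with NACs to −1.91 (adjusted p = 0.0102, and 0.287 with the offset), and gave 1 called member with ACs between genotype labels, as in the reported fit. Of 60 group means of CPM, 54 moved by under 1 SD with library totals alone. The pseudocount of 0.25 CPM bears on no call, since it cannot change whether groups overlap. With 2 to 203 counts in a library, depth limits the values of Timp3.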
